A study of Mus musculus with 6 samples.

Results

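The subject is a stretch of mouse chromosome 13 that holds Edil3, Hapln1 and Vcan, taken as every ATAC-seq peak whose summit lies at chr13:88900000-90100000 in the coordinates of the deposited lists, read as GRCm39. Across 6 libraries, 427 of 1455940 listed peaks met this rule. The gene limits are rounded to 10 kb and place Edil3 near 88.97 to 89.47 Mb, Hapln1 near 89.69 to 89.76 Mb and Vcan near 89.80 to 89.90 Mb. The stretch was chosen by position with earlier results of these data known, among them where open regions were gained by day 10, so all values below are a description and no test was made on them.

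ATAC-seq marks open chromatin by the insertion of sequencing adapters by the transposase Tn5. The cells were ATDC5, an established mouse line of cartilage precursors labelled pre-chondrocyte, spotted as dense droplets and given medium with bGP and L-ascorbate-2-phosphate. There were 3 groups of 2 libraries each: Day0, labelled control, and Day3 and Day10, labelled differentiation. The labels call the replicates independent biological ones, and all libraries come from the single line. The labelled cell type was not checked against marker genes, because no annotation of the build of the lists was used here.

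Hapln1 encodes cartilage link protein, which locks proteoglycans onto hyaluronan in the cartilage matrix. Vcan encodes versican, a large chondroitin sulfate proteoglycan of precartilage and other loose matrix that binds hyaluronan and is held there by link protein. Edil3 encodes a secreted integrin-binding matrix protein with EGF-like repeats and discoidin domains. The genes for link proteins and for the hyaluronan-binding proteoglycans lie next to each other at several places in vertebrate genomes, and Hapln1 with Vcan is one such pair.

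The promoters of the link protein gene and of its neighbour are shown because their surroundings behaved differently in these data. Each is the 250 bases before the start of the gene, read 5′ to 3′, from RefSeq on GRCm38.p6, a build other than that of the peaks, so peaks cannot be placed on these letters. Hapln1 lies on the forward strand (chr13:89540386-89540635 in GRCm38.p6) and Vcan on the reverse strand (chr13:89742513-89742762 in GRCm38.p6). Of the 3 genes, 2 had an entry. Capitals mark the letters TGTGGT, the core bound by RUNX factors.
Hapln1 promoter: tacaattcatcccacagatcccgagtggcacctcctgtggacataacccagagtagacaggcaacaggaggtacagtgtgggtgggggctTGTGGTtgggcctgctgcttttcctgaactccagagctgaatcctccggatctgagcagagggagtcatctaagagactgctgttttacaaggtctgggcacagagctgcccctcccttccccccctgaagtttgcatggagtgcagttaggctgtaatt
Vcan promoter: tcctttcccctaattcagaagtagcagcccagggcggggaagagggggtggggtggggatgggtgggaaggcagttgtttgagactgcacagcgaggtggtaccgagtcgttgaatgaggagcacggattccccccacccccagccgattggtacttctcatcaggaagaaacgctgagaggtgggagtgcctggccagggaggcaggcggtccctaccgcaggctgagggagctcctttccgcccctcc

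Both strands of these promoters were searched for TGTGGT (RUNX), TGANTCA (AP-1), ACAATG (SOX), GGAATG (TEAD) and AGGGGGC (a piece of the CTCF motif). The Hapln1 promoter held TGTGGT once, beginning 160 bases before the start, and so did 14.0% of 32851 mouse promoters of the same length. The other motifs had 0 matches in the Hapln1 promoter, and the Vcan promoter matched none of the 5. AP-1 letters stood in 6.75% of all promoters, SOX letters in 10.7%, TEAD letters in 12.6% and the CTCF piece in 9.43%. G and C made up 54.4% of the Hapln1 promoter, with 2 CpG pairs, and 62.4% of the Vcan promoter, with 10 CpG pairs. The median over all promoters was 52.4% and 6.0 CpG pairs.

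On Day10 many more open sites were listed in the stretch than on the earlier days, and most of the added ones lay in Hapln1 and in the interval before it. The stretch held 37 and 40 listed peaks on Day0, 46 and 43 on Day3, and 129 and 132 on Day10. The Day10 libraries thus listed 3.39 times as many peaks here as the Day0 libraries, beside 2.34 times over the whole lists, while the Day3 libraries listed 1.16 times as many, beside 1.08 times. Its density was 3.08 and 3.33 peaks per 100 kb on Day0, 3.83 and 3.58 on Day3, and 10.7 and 11.0 on Day10. All chromosomes together averaged 6.04 and 6.06, then 6.52 and 6.5, then 14.0 and 14.3, so the stretch as a whole lay below the genome on every day. The peaks covered 12.1 and 12.7 kb on Day0, 14.1 and 13.3 kb on Day3, and 32.5 and 33.3 kb on Day10. Peaks found in 1 replicate were mostly found in the other: all 37 and 92.5% of the Day0 peaks, 84.8% and 95.3% of the Day3 peaks, and 87.6% and 87.1% of the Day10 peaks were overlapped in the other library of that day.

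List length follows depth and the authors' threshold, and the Day10 lists were the longest, with 380922 and 389677 peaks on the assembled chromosomes against 164320 to 177425 in the other libraries. Each fold, the authors' ratio of the reads over a summit to the background of the library, was found to rest on a whole number of reads, with a background of 0.717 and 0.731 reads on Day0, 0.799 and 0.798 on Day3, and 1.08 and 1.15 on Day10. The smallest listed peak had 5 reads at its summit in every library. The Day10 libraries also had narrower minimum widths, 68 and 72 bases against 87 to 90, so any separate handling of these libraries and day 10 cannot be told apart. The same holds for the Day3 libraries, whose peak names alone hold the word lysis. How much of the result comes from depth was not tested. At a fold of 10 or more, the direction was the same, with 21 and 20 peaks on Day0, 21 and 22 on Day3, and 40 and 39 on Day10. That is 1.93 times as many on Day10 as on Day0, beside 1.27 times over the whole lists. The fold adds 1 to the reads and to the background, so an equal fold does not take depth away.

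**Figure D1:**
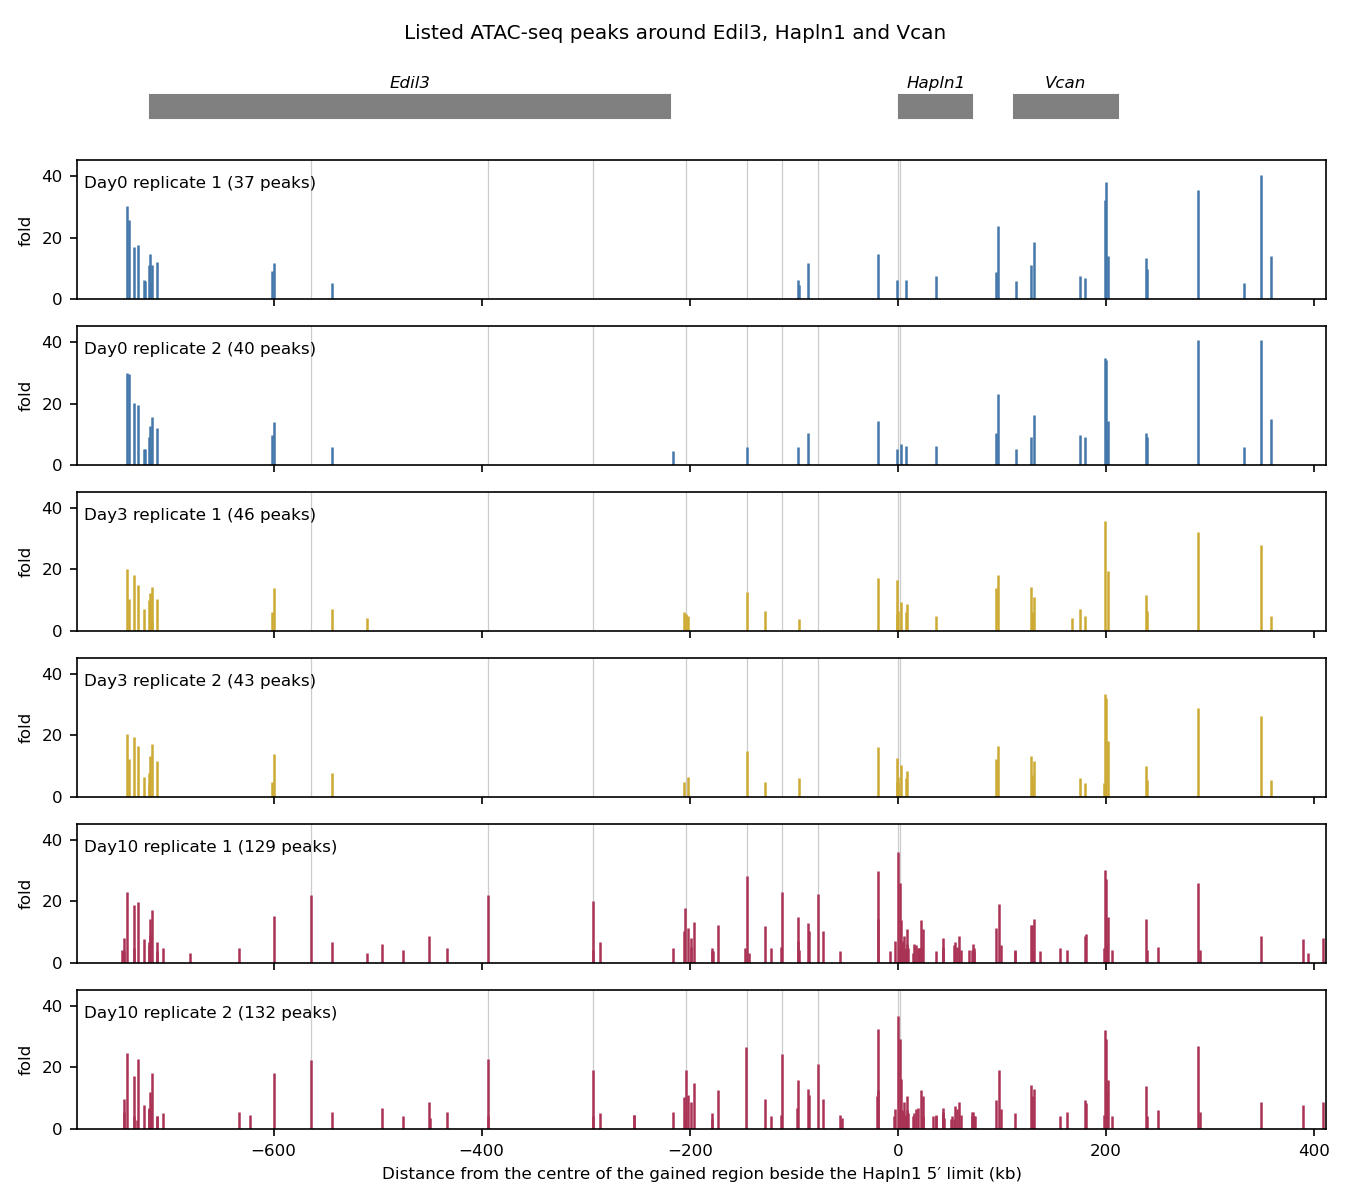
Listed peaks of the 6 libraries along the stretch. The x axis is the distance in kb from the centre of the gained region beside the Hapln1 5′ limit, the height of each line is the authors' fold over background at the summit of a peak, grey bars are gene limits rounded to 10 kb, and grey lines mark the 9 regions gained at Day10 against Day0. The Day10 libraries list 129 and 132 peaks, and most of the added ones lie in Hapln1 and in the interval before it.

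The number of added peaks on Day10 differed between segments. The gene limits are rounded, so a peak within a few kb of one may belong to the neighbouring segment. Within the limits of Hapln1, 2 and 3 peaks were listed on Day0, 4 and 3 on Day3, and 31 and 35 on Day10. Their density on Day10 was 44.3 and 50.0 peaks per 100 kb, above the 14.0 and 14.3 of all chromosomes. On Day10 Vcan, with its 19 and 17 peaks in 100 kb, also lay above all chromosomes. Per 100 kb, the interval between Hapln1 and Vcan held 15.0 and 20.0, the segment before Edil3 15.7 and 14.3, and the interval before Hapln1 15.5 and 14.1. Edil3, with 3.8 and 4.6, and the segment beyond Vcan, with 4.5 and 4.0, lay below all chromosomes. At Day0 the density in Hapln1 was 2.86 and 4.29 per 100 kb, below the 6.04 and 6.06 of all chromosomes. Peaks covered 0.414% and 0.579% of the gene on Day0, 0.683% and 0.64% on Day3, and 8.24% and 8.45% on Day10.

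Most of the Hapln1 peaks on Day10 were weak. Their median fold was 5.28 and 5.11, and 5 in each library had a fold of 10 or more, against 0 and 0 on Day0 and 0 and 1 on Day3. The strongest of those 5 lay at the 5′ end of the gene. Another, at chr13:89711046-89711508 in Day10 replicate 1, had a fold of 13.91, and its counterpart in replicate 2 had 12.55. No Day0 or Day3 library listed a peak there.

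The 220 kb between Edil3 and Hapln1, upstream of the link protein gene, showed the largest number of added strong peaks. All listed peaks there numbered 5 and 6 on Day0, 10 and 10 on Day3, and 34 and 31 on Day10. Those with a fold of 10 or more numbered 2 and 2 on Day0, 3 and 3 on Day3, and 16 and 15 on Day10. The 500 kb of Edil3 held few peaks for its length on every day, 6 and 6 on Day0, 8 and 5 on Day3, and 19 and 23 on Day10.

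Vcan and the outer segments changed less. Vcan held 8 and 9 peaks on Day0, 10 and 10 on Day3, and 19 and 17 on Day10, but with a fold of 10 or more the counts were 5 and 4, then 4 and 5, then 6 and 7. Before Edil3 the strong peaks numbered 6 and 5 on Day0, 6 and 5 on Day3, and 4 and 3 on Day10. Beyond Vcan, where the RefSeq order of GRCm38.p6 places Xrcc4, they numbered 4 and 4 on Day0, 3 and 3 on Day3, and 2 and 2 on Day10. Between Hapln1 and Vcan they numbered 1 and 2 on Day0, 2 and 2 on Day3, and 2 and 1 on Day10. Strong peaks at the 2 edges were thus fewer on Day10 than on Day0, and those from Edil3 to Hapln1 and in Vcan were more. The flanks of 1.2 Mb on each side listed 8 and 11 peaks on Day0, 7 and 8 on Day3, and 19 and 18 on Day10 on the Edil3 side. On the Vcan side they listed 59 and 64, then 66 and 62, then 89 and 96.

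**Figure D2:**
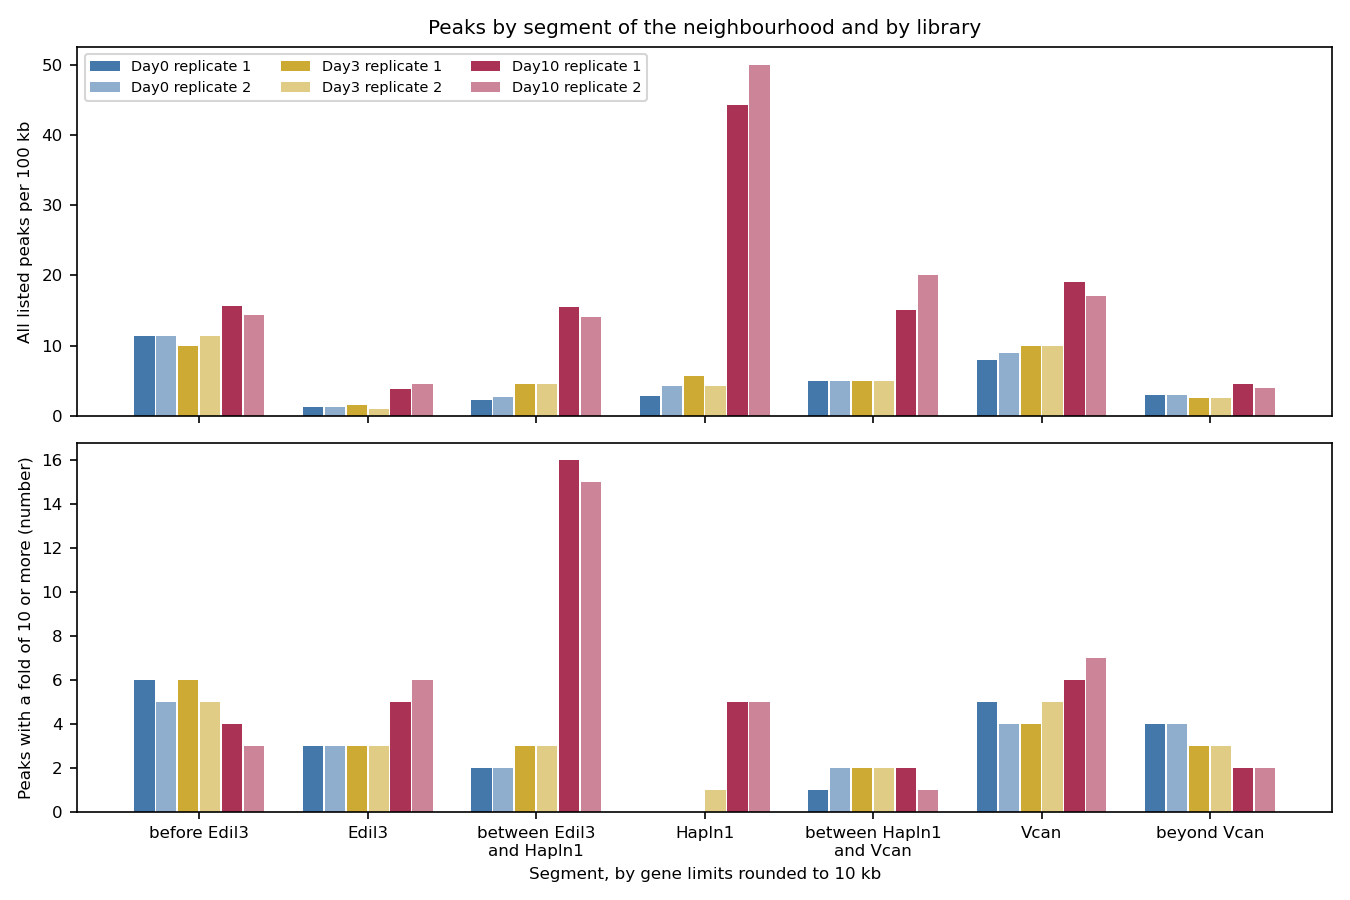
Peaks by segment, with all listed peaks per 100 kb above and the number with a fold of 10 or more below, each bar 1 library and each colour 1 day. At Day10, Hapln1 reaches 44.3 and 50.0 peaks per 100 kb, and the segment between Edil3 and Hapln1 holds 16 and 15 peaks with a fold of 10 or more.

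Regions were then compared by rank, so that lists of unequal length could be set side by side. Windows reaching 250 bases to each side of the summits of the 50000 strongest peaks of each library gave 78698 regions in the genome and 24 here. A region was called gained when a summit in it was among the 50000 strongest in both libraries of the later day and no peak overlapping it was among the 100000 strongest in either library of the earlier day. A region was lost when the same held with the days swapped, and kept when it was among the 50000 strongest in all 4 libraries. An equal rank can mean a different fold. The peak ranked 50000 had a fold of 16.89 and 17.33 on Day0, 14.46 and 15.01 on Day3, and 17.75 and 17.66 on Day10. With 2 libraries against 2, an exact two-sided permutation test cannot give a p below 0.33.

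At Day10 against Day0, 9 of the 24 regions were gained, 37.5% beside 10.7% of all regions. Lost regions numbered 2, 8.33% beside 7.99% of all regions, and kept regions 6, 25.0% beside 34.9%. The other 7 met no rule. The share of gained regions lay above that of the genome, and the share of lost regions was near it.

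At Day10 against Day3, 8 regions were gained, 33.3% beside 7.72%. Another 1 was lost, 4.17% beside 3.16%, and 6 were kept, 25.0% beside 37.9%. The Day10 libraries stand in both comparisons, so these counts are not independent of each other.

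At Day3 against Day0, 0 regions were gained and 0 were lost, while 0.543% and 0.513% of all regions were, and 6 were kept, 25.0% beside 45.6%. With 24 regions, shares this small cannot be seen. Without Day3 replicate 1 a single region was gained, chr13:89542951-89543451, and without Day3 replicate 2 a different one, chr13:89687173-89687673.

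**Figure D3:**
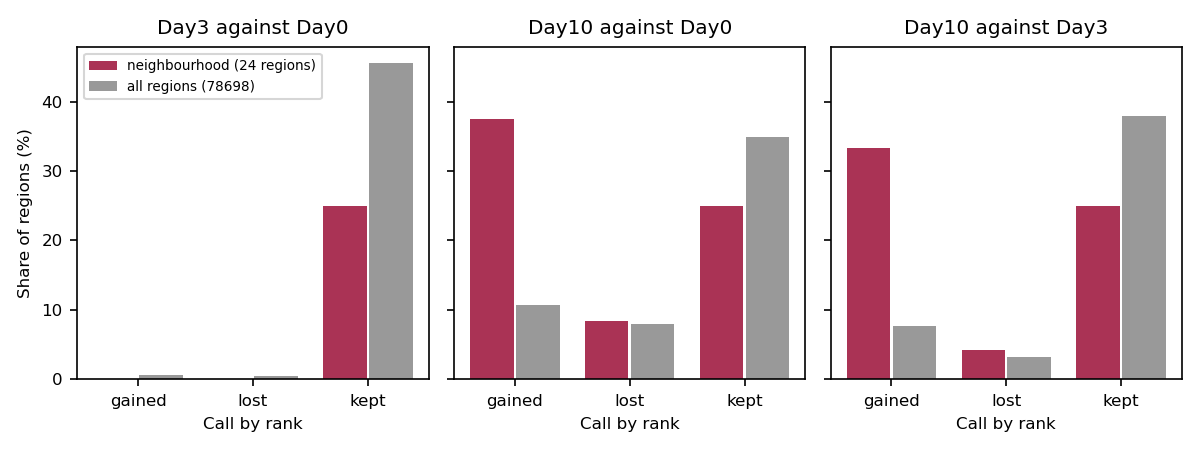
Share of regions gained, lost and kept in each comparison, in percent, with the 24 regions of the stretch in red and all 78698 regions in grey. Gained regions make up 37.5% here beside 10.7% of all at Day10 against Day0, and 33.3% beside 7.72% on Day10 against Day3.

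All 9 gained regions lay between chr13:89124201 and the 5′ part of Hapln1, a span of 567 kb. Edil3 held 3 of them among its 5 strong regions, and the interval between Edil3 and Hapln1 held 5 among 7. Hapln1 held 1, its only strong region, which lay so close to the rounded limit that its side of the true limit is not known. Vcan held 0 among 4 and the gap between Hapln1 and Vcan 0 among 1. The segment before Edil3 held 0 among 4 and the one beyond Vcan 0 among 2. Beside the 10.7% of all regions, 0 among so few does not set these segments apart. In Day10 replicate 1 the gained regions had 36 to 74 reads at their summits, and in replicate 2 they had 40 to 78. Of the 9, 8 had no listed summit in either Day0 library and 6 had none in any Day0 or Day3 library. The rule for gained regions already left out places with a high-ranked Day0 peak. The same shares among all gained regions of the genome were not computed, so these counts do not set the stretch apart.

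The strongest gained region, chr13:89688358-89688858, lay beside the rounded 5′ limit of Hapln1. No summit was listed there on Day0, the fold was 6.7 and 6.7 on Day3, from 11 and 11 reads, and 36.0 and 36.7 on Day10, from 74 and 78 reads. Day10 over Day3 was 2.45 on the log2 scale. The replicates of each day differed far less than the days did, a pattern that the rule for gained regions favours.

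The peak around this region widened as well as grew. At Day0 there was 1 peak in each library, of 192 and 247 bases, with a fold of 6.41 and 5.2. At Day3 the same stretch held 3 separate peaks in replicate 1, of 280, 324 and 414 bases, and 4 in replicate 2, of 241, 88, 88 and 259 bases. At Day10 a single peak took up the whole stretch, 2280 bases wide in replicate 1 (chr13:89686794-89689073) and 2291 in replicate 2 (chr13:89686803-89689093). The Day0 summits lay in the neighbouring window chr13:89687173-89687673, whose fold on Day3 was 16.7 and 12.8. In that window Day3 over Day0 was 1.34 on the log2 scale. At Day10 no summit was listed in that window, since the wide peak covered it with its summit further along, so it counted as neither gained nor lost.

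Just past the rounded 5′ limit of Hapln1, at 0.5 kb from it, chr13:89690264-89690764 was gained with no peak listed on Day0 or Day3. Its fold on Day10 was 25.9 and 29.3, from 53 and 62 reads. The next peak along, at chr13:89691179-89691380 in Day10 replicate 1, was listed in Day0 replicate 2 but not in Day0 replicate 1. Its fold was 6.93 in that Day0 library, 9.45 and 10.57 on Day3, and 13.91 and 16.27 on Day10.

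Further upstream, chr13:89542951-89543451 was the gained region with the clearest intermediate state. It was listed in 1 Day0 library, with a fold of 5.8, then had 12.8 and 15.0 on Day3 and 28.3 and 26.5 on Day10. Its ranks on Day3 were 58011 and 49761, so it was not counted as gained at Day10 against Day3. The log2 ratio of Day10 over Day3 was 0.98.

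The other gained regions between Edil3 and Hapln1 were each listed in at most 1 library before day 10. Fold on Day10 was 23.0 and 24.2 at chr13:89576719-89577219, and 22.5 and 20.9 at chr13:89612051-89612551, both unlisted on earlier days. At chr13:89484300-89484800 the fold was 5.6 in Day3 replicate 1 alone among the earlier libraries, and 17.8 and 19.1 on Day10. This last region lay closest to the rank limit, at ranks 49832 and 45234.

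Edil3 held 3 gained regions, all within its rounded limits and none listed on Day0 or Day3. The fold on Day10 was 22.1 and 22.3 at chr13:89124201-89124701, 22.1 and 22.8 at chr13:89294401-89294901, and 20.1 and 19.1 at chr13:89395176-89395676. The replicates were close to each other at each of these places, though the rule for gained regions already asks that both be strong. The strong region nearest the 5′ limit of Edil3, which lies on the forward strand, was chr13:88971567-88972067. It was listed on every day, with a fold of 11.1 and 15.6 on Day0, 14.5 and 17.2 on Day3, and 17.3 and 18.1 on Day10. Both Day10 values lay above both Day0 values, with a log2 ratio of 0.41, and the Day3 values overlapped those of Day0. The region met no rule, since its ranks were 51982 and 48866 on Day10, against 75513 and 55162 on Day0. It lay 1.8 kb past the rounded limit. A peak at the limit itself, chr13:88969553-88970304 in Day0 replicate 1, was listed in every library and did not rise. Its fold was 14.56 and 12.71 on Day0, 12.23 and 13.35 on Day3, and 14.39 and 12.08 on Day10.

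**Figure D4:**
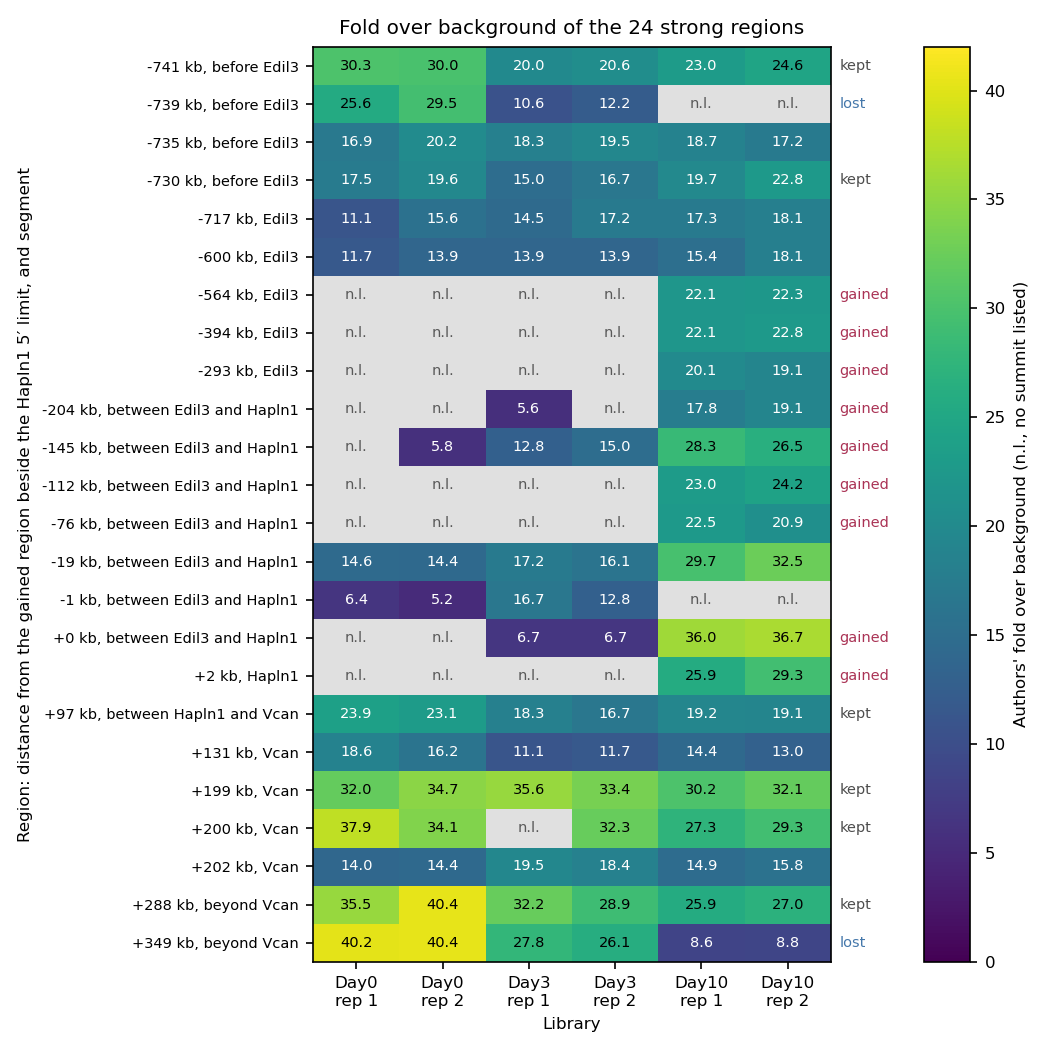
Authors' fold over background of the 24 strong regions (rows, in order along the chromosome, with the distance in kb from the gained region beside the Hapln1 5′ limit) in each library (columns). Grey cells (n.l.) have no listed summit, and the words at the right give the call at Day10 against Day0. The 9 gained regions lie from Edil3 to the 5′ part of Hapln1, with regions that were not gained among them, and have a fold of 17.8 to 36.7 on Day10.

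A further region before Hapln1 had a higher fold on Day10 than on Day0 without being called gained, because both of its Day0 ranks were within 100000. At chr13:89669493-89669993 the fold was 14.6 and 14.4 on Day0, 17.2 and 16.1 on Day3, and 29.7 and 32.5 on Day10. Its ranks were 16738 and 13006 on Day10, against 58717 and 59536 on Day0, and at Day10 against Day3 it counted as kept. On the log2 scale Day10 over Day0 was 1.10, the highest among the 13 regions here that had a summit in all Day0 and Day10 libraries.

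Vcan was open toward its 5′ end on every day. The 3 strong windows there lay at -12.4, -11.4 and -9.5 kb from the rounded limit, on the gene's side of it. That limit is rounded to 10 kb, so their true distance from the gene start is not known. Whether they lie inside the gene is not known either. Its region with the best mean rank over the 6 libraries, chr13:89887393-89887893, had a fold of 32.0 and 34.7 on Day0, 35.6 and 33.4 on Day3, and 30.2 and 32.1 on Day10. The Day10 and Day3 values each overlapped those of Day0, while both Day10 values lay below both Day3 values. Next to it, chr13:89888310-89888810 had 27.3 and 29.3 on Day10, against 37.9 and 34.1 on Day0, where the second window had the higher mean fold. In Day3 replicate 1 a peak of 2349 bases covered both windows, with its only summit in the first, and in Day3 replicate 2 the second window had a fold of 32.3. The region nearest the rounded 5′ limit, chr13:89890215-89890715, had 14.0 and 14.4 on Day0, 19.5 and 18.4 on Day3, and 14.9 and 15.8 on Day10. There the Day3 values were the highest, and the log2 ratio of Day3 over Day0 was 0.41. Within Vcan, chr13:89819037-89819537 had 18.6 and 16.2 on Day0, 11.1 and 11.7 on Day3, and 14.4 and 13.0 on Day10.

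The lost regions lay at the 2 edges. At chr13:90037145-90037645, beyond Vcan, the fold was 40.2 and 40.4 on Day0, 27.8 and 26.1 on Day3, and 8.6 and 8.8 on Day10, so it fell at each step. The log2 ratio of Day10 over Day0 was -2.21 and that of Day10 over Day3 was -1.63. It was the strongest peak of the stretch in Day0 replicate 1 and shared that place in replicate 2, and a peak of 17 and 18 reads was still listed on Day10. At chr13:88949081-88949581, before Edil3, the fold was 25.6 and 29.5 on Day0 and 10.6 and 12.2 on Day3, and no peak was listed on Day10.

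The 6 regions kept at Day10 against Day0 had log2 ratios between days from -0.57 to 0.42, so they moved in both directions. Before Edil3, chr13:88947270-88947770 had a fold of 30.3 and 30.0 on Day0, 20.0 and 20.6 on Day3, and 23.0 and 24.6 on Day10. Day3 over Day0 was -0.57 there on the log2 scale, with both Day3 values well below both Day0 values. It is the nearest neighbour of the lost region above, and it was among the 50000 strongest in every library. At chr13:88958127-88958627, also before Edil3, the fold was 17.5 and 19.6 on Day0, 15.0 and 16.7 on Day3, and 19.7 and 22.8 on Day10. Of these 6, this was the 1 region with a higher mean on Day10 than on Day0, with log2 ratios of 0.19 over Day0 and 0.42 over Day3. Between Hapln1 and Vcan, chr13:89785042-89785542 had 23.9 and 23.1 on Day0, 18.3 and 16.7 on Day3, and 19.2 and 19.1 on Day10. Beyond Vcan, chr13:89976487-89976987 had 35.5 and 40.4, then 32.2 and 28.9, then 25.9 and 27.0. The log2 ratio of Day10 over Day0 was -0.34 at the first of these, -0.30 between Hapln1 and Vcan, and -0.52 beyond Vcan.

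Regions with a summit on both days have a ratio of folds, though at Day10 over Day0 this leaves out all 9 gained regions. The fold adds 1 to the reads and to the background, and the background was highest on Day10. The ratios can therefore shift with depth, and the size of that shift was not tested. The median log2 ratio of Day10 over Day0 was -0.10 over 13 of the 24 regions, beside -0.22 over 60643 regions of the genome, and single regions ran from -2.21 to 1.10. The median was -0.16 without Day0 replicate 1 and -0.04 without Day0 replicate 2. For Day3 over Day0 it was -0.10 over 14 regions, beside -0.15, and it was -0.02 without Day0 replicate 2 and -0.15 without Day3 replicate 1. For Day10 over Day3 it was 0.20 over 14 regions, beside -0.12.

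Sites listed on Day10 alone, most of them weak, lay in every segment, most densely in Hapln1. When windows were built on every listed peak, the stretch held 133 sites of 384746 in the genome. Sites listed in both Day10 libraries and in no other numbered 59, 44.4% beside 32.6% of all sites. Sites listed in all 6 libraries numbered 27, 20.3% beside 29.8%. Another 6 were listed in both Day3 and both Day10 libraries but in no Day0 library, 4.51% beside 5.26%, and 7 were listed in both Day0 libraries and neither Day10 library, 5.26% beside 5.15%. Sites found in both Day3 libraries alone numbered 0, beside 0.859%.

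Hapln1 held 19 of the 59 sites found on Day10 alone, 27.1 per 100 kb, and the interval before it held 16, or 7.27 per 100 kb. The interval between Hapln1 and Vcan held 3 in its 40 kb, or 7.5 per 100 kb. Edil3 held 10, which is 2.0 per 100 kb, and Vcan 5, which is 5.0 per 100 kb. The segment before Edil3 held 2 and the one beyond Vcan held 4. Beside the 32.6% of all sites in the genome, these were 19 of 32 sites in Hapln1 and 16 of 36 in the interval before it. They were 3 of 5 between Hapln1 and Vcan, 10 of 20 in Edil3 and 5 of 18 in Vcan. Before Edil3 they were 2 of 12, and beyond Vcan 4 of 10. The density of such sites over all chromosomes was not computed. Of the 27 sites listed in all libraries, Vcan held 7, the segment before Edil3 held 6, and Hapln1 held 1. The mean Day10 fold of the 59 sites ran from 3.77 to 27.59 with a median of 5.91, and 13 had a mean of 10 or more. A fold of that median size lies below that of rank 100000 on Day0, 7.57 and 7.51, but above the smallest fold listed there, 3.5 and 3.47. The part of depth in these weak sites was not tested.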

How the data were processed

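ATAC-seq peak lists of 6 libraries were used, 2 each at Day0, Day3 and Day10, grouped by their titles. Per the labels' protocols the reads were 75 bases, single-end. The authors deposited 1 narrowPeak list per library, so peaks were not called on pooled libraries. Per deposited row there are a whole-number score, a fold ratio over the library's background, and the −log10 of a p and of a q. The submitters' processing notes name Trim Galore and mm10. Which aligner and peak caller were run is not given in the sources used here. The lists hold scaffold names of GRCm39, so positions are read as that build and counted from 1. No annotation or genome of that build was used, and the gene limits are rounded ones, not checked against an annotation.

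Peaks on chromosomes 1 to 19, X and Y were ranked in each library by the authors' −log10 p, then fold, then position, in Python 3.11.15 with pandas 2.3.3 and NumPy 2.4.6. Reads at a summit were recovered from the even spacing of the deposited fold ratio, as (reads + 1) / (background + 1), and came out whole within 0.01 in all peaks of every library. No counting interval is given. The caller of gained and lost regions was tested on simulated lists. No p-value was computed. Depth as total reads was not used here.

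The members and all lists and motifs were chosen with earlier results of these data known. Named regions are the gained and lost ones of each comparison (up to 10 each way, by the poorer rank on the strong day), the 5 with the best mean rank, and the one nearest each gene's 5′ limit. Others in the text (the windows beginning at 89687173, 89819037 and 89888310, and single peaks) were chosen after their values were seen. Planned lists of matrix genes, cell type markers and motifs in peaks need an annotation or genome of the build and were not run. The search of promoter letters was added after seeing the data. Alternatives were the rule on summits alone, ranks of 30000 and 70000, no gap between ranks, windows of 301 and 1001 bases, thresholds of 5 and 10 on −log10 q, and leaving out each library.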

Additional observations from a re-analysis of the deposited data

How the results depend on the processing

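At Day10 against Day0 the gained count ran from 8 to 11 except with the 30000 strongest peaks, where 3 of 11 regions were gained, beside 6.67% of all regions. The gained share lay above that of all regions in every alternative. The lost count was 1 with the 30000 strongest, 4 of 35 with the 70000 strongest, and 1 with thresholds on −log10 q, where the region at 90037145 still had a listed peak. At Day10 against Day3, 2 regions were gained with the 30000 strongest, 3 were lost with the 70000 strongest, and 2 were lost with no gap between ranks. With thresholds on −log10 q 6 were gained there, without the strongest region at 89688358 and the one at 89484300, and the 1 lost was not the region at 90037145. Day3 against Day0 gave 2 gained and 1 lost both with the 70000 strongest and with no gap, and 0 to 1 gained when a library was left out, since fewer conditions had to be met. Leaving out a library changed no count at Day10 against either earlier day. Summit ranks alone and both other window sizes changed no count of gained or lost regions. Of 220 single calls recomputed for named regions, 202 held and 18 did not, 13 of them with the 30000 strongest, where most of these places were no longer regions, and 5 with thresholds on −log10 q.

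The ratio of listed peaks at Day10 over Day0, 3.39 with all peaks, was 2.20 at a −log10 q of 5 or more, 2.18 at 10 or more, 1.94 among the 50000 strongest, and 1.93 at a fold of 10 or more, the last added after seeing the data. The median log2 ratio of Day3 over Day0 was -0.23 with summits ranked 100000 or better. When a library was left out, it ran from -0.15 to -0.02, that of Day10 over Day0 from -0.16 to -0.04, and that of Day10 over Day3 from 0.14 to 0.27. The cause of these shifts was not tested. No paired analysis was possible because the result comes from no test. Total depth was not used here, so an unlisted site is below the authors' threshold at that depth, not shown to be closed.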
